A study of Homo sapiens with 6 samples.

Results

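Transcripts that encode the ribosome assembly machinery and the RNA exosome were followed in an RNA immunoprecipitation sequencing (RIP-seq) experiment on IGF2BP2 in 786-O, a human cell line established from a clear cell carcinoma of the kidney. The 78 genes were selected by symbol (the NOP, UTP, RRP, EXOSC, NOL and NOC families and a set of named nucleolar factors) from the 20020 rows of the count table, with a minimum of 20 reads summed over the 6 libraries. The symbols alone matched 80 genes, and the minimum left out *NOL4*, with 7 reads in all, and *UTP14C*, with 0. Just inside the minimum lay *EXOSC4*, with 21 reads, and *NOP2*, with 27. Groups were 3 libraries of RNA recovered with IGF2BP2 (RIP) and 3 of input RNA, all from 786-O cells grown in RPMI1640 medium with serum, with no other treatment given in the labels. All libraries thus come from 1 cell line, and no library of a nonspecific antibody was used here. Each ratio of RIP to input therefore also holds RNA that any antibody or bead would recover.

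Ribosomes are assembled in the nucleolus, where a long precursor rRNA is transcribed, modified by small nucleolar ribonucleoproteins (snoRNPs), folded and cut, while ribosomal proteins are added. The small subunit processome gathers on the precursor of 18S rRNA, a separate set of factors builds the 60S subunit, and the RNA exosome, a ring of subunits with attached exonucleases, trims and degrades RNA from the 3′ end. Growing cancer cells depend on this machinery, and many of its genes are described as targets of the transcription factor MYC. IGF2BP2 is a cytoplasmic RNA-binding protein known as one of the readers of m6A, the methyl mark on adenosine in mRNA, so what is measured here is the mRNA of the assembly factors, not their protein.

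The libraries held 33872621 to 44045835 reads in RIP and 25773819 to 27226405 in input. *IGF2BP2* mRNA itself stood at 263 ± 4.09 normalised CPM (a gene's reads scaled to library depth with TMM factors) in the RIP libraries, against 121 ± 2.97 in the inputs (SD over 3 libraries each). The renal and line markers *PAX8*, *EPAS1*, *KRT8*, *KRT18*, *VIM* and *CDH2* were all present, and none of 10 endothelial, immune, fibroblast or hepatocyte markers exceeded 3.56 CPM in any library. Whether the replicates were grown as separate cultures is not in the labels, and the p-values therefore speak only of the variation among these 6 libraries, which may be technical. In pooled RNA of a culture, fewer cells with a transcript and less of it per cell cannot be told apart.

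A feature that the choice of genes did not use was the promoter. RefSeq (GRCh38.p14) listed a window of 300 bases around the start, 250 before it and 50 after, for 66 of the 78 genes, and 65 of these were tested. The sequence CACGTG, the E-box bound by MYC and related factors (the same on both strands), lay in the window of 23 of 65 members, or 35.4%, against 10.1% of the 10475 tested genes with a window and 7.43% of all 27305 windows. The motif did not sort the members by direction. Of those with it 18 were lower in RIP, 4 higher and 1 not called. Of the 42 without it 30 were lower and 8 higher. Medians of the log2 fold change were -0.94 with the motif and -0.81 without it. Among all tested genes with a window, 46.2% of the 1059 with the motif were lower and 39.4% higher. Of the 9416 without it, 3981 were lower and 3852 higher. The 250 bases before the start are shown for 4 called members whose motif lies within those bases and whose mean was at least 5 CPM, the lowest (*UTP14A* and *UTP18*) and the highest (*IMP4* and *UTP4*) such members in RIP over input. *FBL*, *LTV1*, *NOC3L*, *RRP9* and *PES1* were lower still, but hold the motif after or across the start and are not shown. CACGTG is in capitals, and the sequences are all 5′ to 3′ on the plus strand. Positions are chrX:129905914-129906163 for *UTP14A*, chr17:51260296-51260545 for *UTP18*, chr2:130342647-130342896 for *IMP4* (the first of 2 listed starts) and chr16:69132399-69132648 for *UTP4*.
UTP14A: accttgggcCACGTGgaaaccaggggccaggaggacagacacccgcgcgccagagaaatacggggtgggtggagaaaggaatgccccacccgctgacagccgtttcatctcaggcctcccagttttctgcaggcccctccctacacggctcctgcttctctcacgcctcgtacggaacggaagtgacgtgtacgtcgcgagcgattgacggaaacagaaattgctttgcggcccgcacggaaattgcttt
UTP18: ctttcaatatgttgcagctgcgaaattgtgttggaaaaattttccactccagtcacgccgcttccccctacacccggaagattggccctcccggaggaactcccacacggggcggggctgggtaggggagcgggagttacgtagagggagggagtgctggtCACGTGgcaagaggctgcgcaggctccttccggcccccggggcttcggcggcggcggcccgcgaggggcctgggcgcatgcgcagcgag
IMP4: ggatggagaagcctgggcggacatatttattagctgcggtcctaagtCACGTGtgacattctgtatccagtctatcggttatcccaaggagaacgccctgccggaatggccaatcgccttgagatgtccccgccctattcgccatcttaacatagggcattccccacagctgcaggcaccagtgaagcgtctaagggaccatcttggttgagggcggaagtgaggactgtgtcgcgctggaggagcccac
UTP4: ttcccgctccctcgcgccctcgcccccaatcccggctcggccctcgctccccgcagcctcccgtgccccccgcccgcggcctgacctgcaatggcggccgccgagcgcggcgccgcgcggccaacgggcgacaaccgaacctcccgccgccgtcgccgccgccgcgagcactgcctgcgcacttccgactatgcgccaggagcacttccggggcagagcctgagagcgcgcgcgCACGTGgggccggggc
Within these bases the motif began 241 bases before the start in *UTP14A*, 89 in *UTP18*, 203 in *IMP4* and 16 in *UTP4*. A match of these letters is a description of the window and does not show binding.

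Most transcripts of the assembly machinery were lower in RIP than in input. Of the 78 genes, 76 had enough reads to be tested, and *EXOSC4* and *NOP2* did not. In edgeR's quasi-likelihood test, at a Benjamini-Hochberg adjusted p under 0.05 over all 12856 tested genes, 57 members were lower, 14 were higher and 5 were not called. That was 75% of the tested members lower and 18.4% higher, against 42% lower and 40.7% higher among all tested genes. A call in either direction was made for 82.7% of all tested genes, so being called says little of a single member. A difference of 2-fold or more was called for 36 members lower and 2 higher, where 19.7% and 15.1% of all tested genes were. All 3 RIP libraries lay below all 3 inputs for 58 members and above them for 14, against 42.2% and 40.9% of all genes. The median log2 fold change of the members was -0.94 and that of all tested genes -0.02. Together the 78 transcripts took 0.220%, 0.221% and 0.221% of all reads in the 3 RIP libraries, against 0.317%, 0.320% and 0.316% in the 3 inputs.

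**Figure D1:**
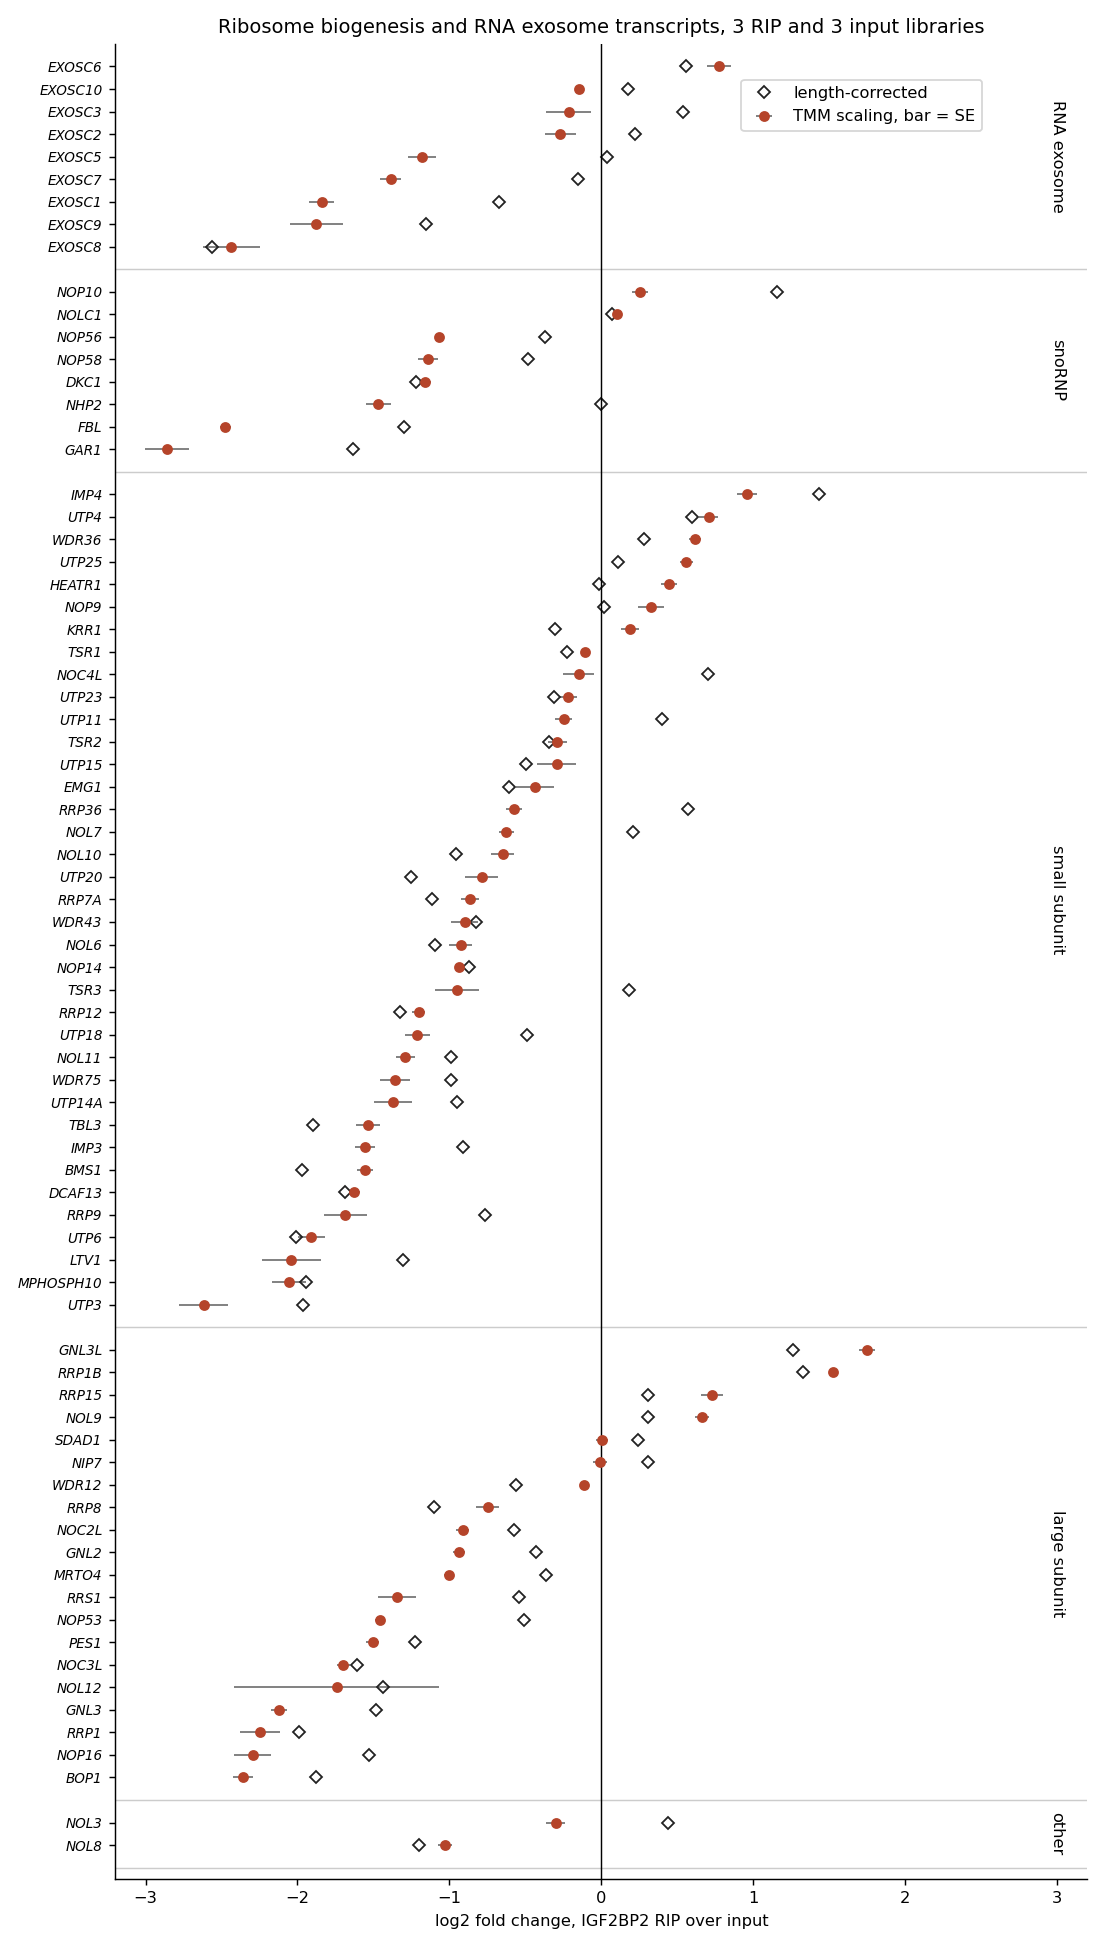
Log2 fold change of RIP over input for the 76 tested members, grouped by role and ordered within each group. Filled circles are the values with TMM scaling and bars their SE over 3 libraries a group, open diamonds the values after the trend with gene length was removed, and most circles lie left of 0 in the exosome, snoRNP, small subunit and large subunit groups.

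Fold changes in this experiment were larger in longer genes over the whole transcriptome, with a Spearman rho of 0.44 across the 12856 tested genes and 0.45 across the 76 members. These are descriptions across genes that share the same 6 libraries. Length here is the value per gene implied by the deposited counts and FPKM. It is not the genomic span, and it does not tell which transcripts of a gene these cells make. The members' median length was 2878 nt, shorter than the 3981 nt of all tested genes. From 1000 to 2000 nt, 18 of 21 members were lower, against 69% of all tested genes of that length. In the range of 2000 to 3000 nt, 16 of 18 members were lower, against 57.5% of all tested genes of that length. From 4000 to 6000 nt, 13 of 16 members were lower and 3 higher, against 33.2% and 48.5% of all genes. From 8000 nt upward 4 of 6 members were higher and 1 lower, near the 65.2% and 18.5% of all genes of that length.

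**Figure D2:**
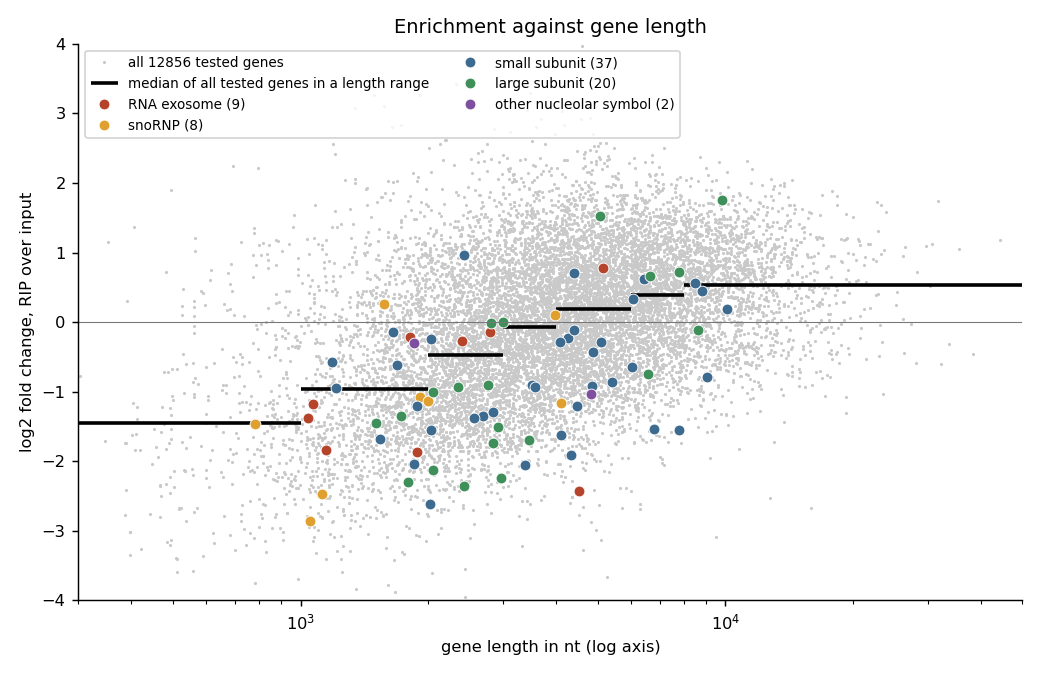
Log2 fold change of RIP over input against gene length on a log axis, with all tested genes in grey (16 lie outside the axes), members coloured by role and black lines for the median of all tested genes in each length range. Members between 2000 and 6000 nt lie mostly under the black lines.

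After the length trend was removed, 49 members were lower, 19 higher and 8 not called, with a median of -0.52, while 40% of all tested genes were lower and 40.2% higher. The calls of 47 members were lower in both fits and those of 9 were higher in both. The call of 6 members turned from lower to higher (*EXOSC2*, *EXOSC10*, *UTP11*, *NOL7*, *RRP36* and *NOL3*), and that of *KRR1* from higher to lower. When the libraries were scaled by their totals only, all tested genes had a median of -0.26, and 63 members were lower and 10 higher, where 50.4% and 32% of all genes were.

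The RNA exosome was split among its subunits. Of the 10 genes, 7 were lower in RIP, 1 was higher, 1 was not called and 1 was not tested, while 42% of all tested genes were lower and 40.7% higher. The median log2 fold change was -1.18. Levels per length (FPKM, reads scaled to gene length and library total) in input ran from 2.37 FPKM for *EXOSC6* to 41.7 FPKM for *EXOSC10* among the 9 tested genes, so the transcripts of this complex were not equally abundant to start with. *EXOSC10* encodes the nuclear exonuclease that sits on the ring.

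In the ring, *EXOSC8* had 2.15, 2.93 and 2.88 CPM in RIP, against 16.7, 12.5 and 13.9 CPM in input. It was 5.41-fold lower (log2 fold change -2.43, SE 0.190, edgeR adjusted p = 5.89e-15), the largest fold among the tested subunits. *EXOSC9*, another ring subunit, had 8.47, 7.92 and 5.77 CPM in RIP, against 27.0, 26.5 and 28.3 CPM in input. The groups did not overlap for either gene, and *EXOSC9* was 3.67-fold lower.

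*EXOSC1*, a cap subunit that binds RNA, stood at 5.58, 5.46 and 6.50 CPM in RIP and at 20.3, 21.7 and 20.6 CPM in input, 3.58-fold lower. The ring subunits *EXOSC7* and *EXOSC5* were 2.62-fold and 2.27-fold lower. *EXOSC7* had 5.66, 6.13 and 6.54 CPM in RIP, against 16.6, 15.3 and 16.0 CPM in input. *EXOSC5* had 4.09, 4.59 and 4.97 CPM in RIP, against 10.5, 10.7 and 9.70 CPM in input. Every RIP library of these 3 genes lay under every input.

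The other cap subunits differed little. *EXOSC2* had 12.8, 14.7 and 14.5 CPM in RIP, against 18.6, 16.8 and 15.4 CPM in input, 1.21-fold lower (edgeR adjusted p = 0.00578). That call was lost without input replicate 1 (adjusted p = 0.0516). *EXOSC3* had 6.98, 7.72 and 7.59 CPM in RIP, against 7.15, 10.0 and 8.70 CPM in input, the groups overlapped, and it was not called (edgeR adjusted p = 0.0849).

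*EXOSC6*, a ring subunit, was the exception in direction. It had 18.1, 19.2 and 20.5 CPM in RIP, against 12.2, 10.8 and 10.8 CPM in input, 1.71-fold higher (log2 fold change 0.77, SE 0.079, edgeR adjusted p = 4.31e-09). *EXOSC10* was nearly even, at 96.1, 96.7 and 97.7 CPM in RIP and 105, 107 and 110 CPM in input, 1.11-fold lower with groups that did not overlap. *EXOSC4* had 1, 0 and 0 reads in RIP, against 5, 10 and 5 in input, too few for a comparison.

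**Figure D3:**
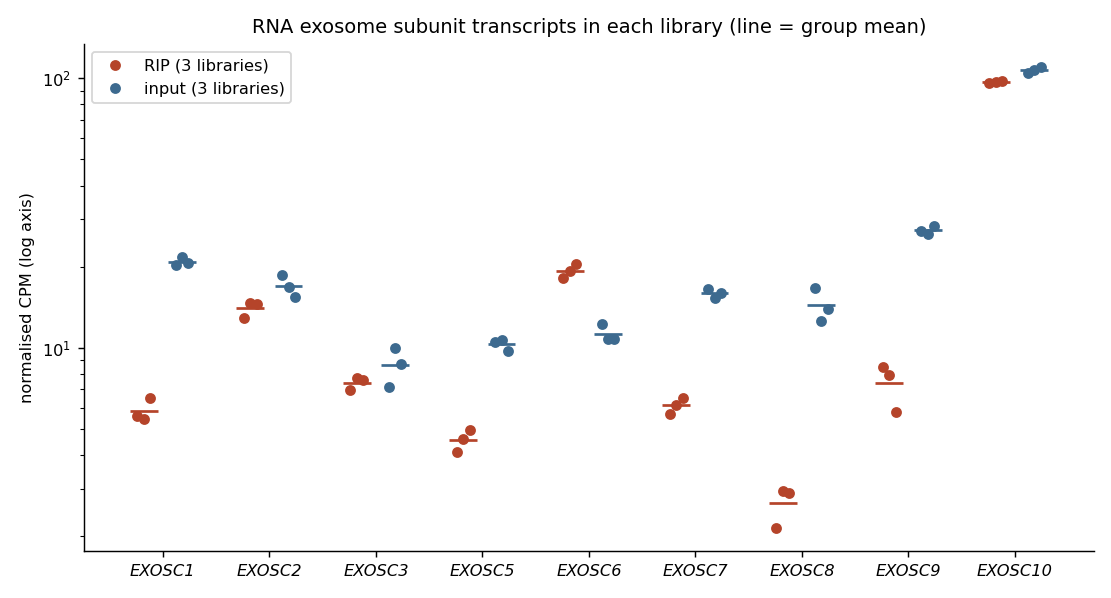
Normalised CPM (log axis) of the 9 tested exosome transcripts in each of 3 RIP and 3 input libraries, with a line at each group's mean. *EXOSC8*, *EXOSC9*, *EXOSC1*, *EXOSC7* and *EXOSC5* are clearly lower in RIP, *EXOSC6* is higher, and the remaining genes lie close to their inputs.

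The exosome genes are short, with a median of 1875 nt, and the length correction moved this group more than the others. In that fit 3 exosome genes were lower, 4 were higher and 2 were not called, where 40% of all tested genes were lower and 40.2% higher. The median log2 fold change of the exosome genes was 0.04, near the -0.001 of all tested genes. *EXOSC8* (-2.56), *EXOSC9* (-1.15) and *EXOSC1* (-0.67) were the 3 that were lower, *EXOSC6* kept a higher value (0.56), and *EXOSC3* was called higher (0.54). *EXOSC5* (0.04) and *EXOSC7* (-0.15) no longer passed the test.

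Genes that work with the exosome, listed apart from the members, were lower in 10 of 15 cases, higher in 3 and not called in 2. Of all tested genes, 42% were lower and 40.7% higher. Their median was -0.36. *C1D*, a nuclear cofactor, was 2.63-fold lower, *HBS1L*, which links the cytoplasmic exosome to ribosome rescue, 2.50-fold lower, and the cofactor *MPHOSPH6* 2.41-fold lower. *ZCCHC7*, a subunit of the TRAMP complex, was 1.80-fold higher at 64.6 ± 4.68 CPM in RIP and 35.95 ± 2.03 in input. The polymerase *TENT4B* was 1.34-fold higher and the exonuclease *DIS3L* 1.18-fold higher. *DIS3L* lost its call with library size alone as the scale (-0.0014, edgeR adjusted p = 0.988). *TENT4B* lost its call in the length-corrected fit (-0.03). In that fit 10 genes of the list were lower and 3 higher, against 40% and 40.2% of all tested genes.

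Of the 8 tested snoRNP genes, 6 were lower and 2 higher, where 42% and 40.7% of all tested genes were. The box C/D snoRNPs guide ribose methylation, and the transcripts of their 3 core proteins among the chosen symbols were lower in RIP. *FBL*, the methyltransferase fibrillarin, had 16.3, 16.4 and 17.6 CPM in RIP, against 92.4, 93.9 and 92.6 CPM in input, 5.56-fold lower (log2 fold change -2.48, SE 0.036, edgeR adjusted p = 8.68e-23). The scaffold proteins were less depleted. *NOP56* had 30.6, 29.9 and 30.02 CPM in RIP, against 65.0, 63.1 and 62.0 CPM in input, 2.10-fold lower. *NOP58* had 23.3, 27.0 and 24.2 CPM in RIP, against 56.4, 54.5 and 53.8 CPM in input, 2.21-fold lower. In all 3 genes each RIP library was under each input, and all 3 calls held after the length correction, at -1.30 for *FBL*, -0.37 for *NOP56* and -0.48 for *NOP58*. *SNU13*, a core protein outside the chosen symbols, was 1.32-fold lower, and it was not called after the length correction (0.044).

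The box H/ACA snoRNPs, which convert uridine to pseudouridine, gave 3 transcripts that were lower and 1 that was higher. Beside them, 42% of all tested genes were lower and 40.7% higher. *GAR1* had 2.09, 2.48 and 2.88 CPM in RIP, against 16.9, 19.4 and 17.6 CPM in input, 7.26-fold lower and the lowest log2 fold change of all tested members before the length correction (-2.86, SE 0.146, edgeR adjusted p = 1.36e-17). *DKC1*, the pseudouridine synthase dyskerin, had 39.9, 38.5 and 36.8 CPM in RIP, against 87.8, 85.4 and 84.3 CPM in input, 2.23-fold lower. *NHP2* had 5.18, 5.73 and 4.74 CPM in RIP, against 14.6, 14.8 and 14.2 CPM in input, 2.77-fold lower.

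*NOP10*, the smallest protein of that complex, had 68.2, 65.7 and 68.2 CPM in RIP, against 53.2, 59.9 and 55.9 CPM in input, 1.19-fold higher (edgeR adjusted p = 6.29e-05). With library size alone as the scale it was not called (log2 fold change 0.016). After the length correction it was 1.16 on the log2 scale, while *NHP2* no longer passed the test (-0.0045), *GAR1* stood at -1.63 and *DKC1* at -1.22. *NOLC1*, a chaperone of snoRNPs in the nucleolus, was nearly even, with 159, 151 and 152 CPM in RIP, against 147, 142 and 141 CPM in input. Its call as 1.08-fold higher turned to lower with library size alone (-0.13), and was lost with upper-quartile scaling and after the length correction (adjusted p = 0.672 and 0.111). The *NOLC1* call was also lost without RIP replicate 1, input replicate 2 or input replicate 3 (edgeR adjusted p = 0.117, 0.0685 and 0.0987).

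Members that carry snoRNA genes inside their RefSeq spans were all called lower. There were 10 such genes (*NOP56*, *NOP58*, *DKC1*, *WDR43*, *NOL11*, *UTP20*, *BMS1*, *TSR1*, *GNL3* and *NOP53*), which hold 25 snoRNA genes, and all 10 were also lower in the length-corrected fit. The call of *TSR1*, one of them, stayed the same in only 9 of 18 alternative settings. The median log2 fold change was -1.15 in these 10 and -0.92 in the other 66 tested members. Of those 66, 47 were lower and 14 higher. Among all tested genes, 431 held a snoRNA gene, of which 42.9% were lower and 42.5% higher. After the length correction 46.6% of these 431 were lower, against 40% of all tested genes.

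The small subunit group had 37 tested members, of which 29 were lower, 7 higher and 1 not called, with a median of -0.87. After the length correction 26 were lower, 7 higher and 4 not called, with a median of -0.77. The shares over all tested genes were 42% lower and 40.7% higher, and 40% and 40.2% after the length correction. The UTP-A complex, which binds the start of the rRNA precursor, was divided, with 4 members lower and 2 higher. *UTP4* had 105, 101 and 102 CPM in RIP, against 66.5, 58.1 and 64.4 CPM in input, 1.63-fold higher (edgeR adjusted p = 1.46e-12). *HEATR1* had 114, 118 and 122 CPM in RIP, against 80.9, 89.4 and 89.2 CPM in input, 1.36-fold higher. The call of *HEATR1*, a gene of 8794 nt, ended after the length correction (-0.013), while *UTP4* kept 0.60.

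The other UTP-A members were lower. *WDR75* had 12.3, 14.0 and 11.5 CPM in RIP, against 33.96, 30.3 and 33.1 CPM in input, 2.56-fold lower. *NOL11* had 16.4, 16.9 and 15.9 CPM in RIP, against 42.8, 37.4 and 40.2 CPM in input, 2.45-fold lower. *WDR43* had 44.1, 46.0 and 41.0 CPM in RIP, against 90.6, 76.4 and 78.0 CPM in input, 1.87-fold lower. The groups of these 3 genes were well apart, whereas those of *UTP15* nearly met, with 12.1, 12.5 and 9.87 CPM in RIP, against 15.4, 14.0 and 12.9 CPM in input. *UTP15* was 1.23-fold lower (edgeR adjusted p = 0.00689), and without RIP replicate 3 the call was lost (adjusted p = 0.0607).

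In the UTP-B complex, which also contacts the early precursor, 3 members were lower and *WDR36* was higher. Over all tested genes these shares were 42% lower and 40.7% higher. *WDR36* had 139, 145 and 135 CPM in RIP, against 89.4, 94.2 and 89.0 CPM in input, 1.54-fold higher (edgeR adjusted p = 1.86e-12). *UTP6* had 5.64, 5.31 and 6.28 CPM in RIP, against 20.0, 22.7 and 21.8 CPM in input, 3.76-fold lower. *TBL3* had 8.32, 7.40 and 8.91 CPM in RIP, against 23.3, 24.0 and 23.9 CPM in input, 2.90-fold lower. The groups did not overlap in any of them. *TBL3* and *WDR36* are of similar length, 6783 and 6416 nt, and stayed on opposite sides after the length correction, at -1.90 and 0.28. *UTP18* had 10.3, 12.3 and 12.1 CPM in RIP, against 26.6, 26.4 and 27.4 CPM in input, 2.32-fold lower.

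The U3 snoRNP and the MPP10 complex position U3 snoRNA on the precursor. *MPHOSPH10* had 3.92, 3.996 and 4.90 CPM in RIP, against 18.5, 16.7 and 17.97 CPM in input, 4.16-fold lower. *RRP9*, a protein of the U3 particle, had 3.98, 3.202 and 4.42 CPM in RIP, against 12.6, 11.8 and 12.7 CPM in input, 3.22-fold lower. *IMP3* had 7.35, 6.75 and 7.14 CPM in RIP, against 20.6, 19.5 and 22.3 CPM in input, 2.94-fold lower. These 3 were depleted without overlap, and their partner *IMP4* was not. *IMP4* had 92.9, 85.9 and 92.5 CPM in RIP, against 43.2, 46.8 and 49.3 CPM in input, 1.95-fold higher (log2 fold change 0.96, SE 0.066, edgeR adjusted p = 1.01e-14). *IMP3*, at 2028 nt, and *IMP4*, at 2431 nt, differ little in length, and *IMP4* stood at 1.44 after the length correction and *IMP3* at -0.91.

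The remaining processome and 18S factors numbered 18 tested genes, of which 14 were lower, 3 higher and 1 not called. Over all tested genes 42% were lower and 40.7% higher. *UTP3* had 3.32, 2.68 and 3.84 CPM in RIP, against 21.6, 19.4 and 18.8 CPM in input, 6.13-fold lower. *DCAF13*, a scaffold protein of the processome, had 22.6, 22.9 and 22.1 CPM in RIP, against 73.1, 67.6 and 68.1 CPM in input, 3.08-fold lower. Both kept large values after the length correction, at -1.97 and -1.69. On the other side, *UTP25* had 35.8, 36.1 and 33.1 CPM in RIP, against 24.3, 23.5 and 23.5 CPM in input, 1.47-fold higher. *NOP9* had 21.3, 22.5 and 24.0 CPM in RIP, against 16.4, 19.2 and 18.5 CPM in input, a log2 fold change of 0.33. Neither passed the test after the length correction (0.11 and 0.015), and *KRR1*, the other gene of this set called higher, is the longest member at 10104 nt. The call of *KRR1* (log2 fold change 0.19) was also lost without RIP replicate 2 (edgeR adjusted p = 0.0692).

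*NOC4L*, which acts with *NOP14*, was not called, with 10.5, 12.3 and 13.3 CPM in RIP, against 13.4, 13.1 and 13.5 CPM in input. The others of this set that were lower, apart from *UTP3* and *DCAF13*, ranged from -0.22 for *UTP23* to -1.56 for *BMS1*, a GTPase of the processome. *UTP14A* was 2.59-fold lower, and its intronless copy *UTP14C* was listed at 0 reads in every library. How reads that fit both were counted is not stated in the labels, and *UTP14A* is uncertain to that extent.

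All 5 late factors of the 40S subunit among the chosen symbols were lower, where 75% of the tested members and 42% of all tested genes were. *LTV1*, which leaves the pre-40S particle in the cytoplasm, had 3.18, 3.47 and 2.37 CPM in RIP, against 14.3, 11.1 and 12.1 CPM in input, 4.11-fold lower. *RRP12*, an export factor, had 13.02, 11.9 and 12.1 CPM in RIP, against 28.3, 29.1 and 27.8 CPM in input, 2.30-fold lower. *TSR3*, an enzyme that modifies 18S rRNA, had 4.92, 3.50 and 4.26 CPM in RIP, against 8.17, 8.23 and 7.99 CPM in input, 1.93-fold lower. The first 2 were also lower after the length correction, and *TSR3*, a gene of 1210 nt, was not called there (0.18). Late 40S factors outside the chosen symbols went both ways. *PNO1* was 2.33-fold higher (1.78 on the log2 scale after the length correction) and *RIOK3* was not called. *NOB1*, *RIOK1*, *RIOK2* and *BYSL* were lower.

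*TSR2*, which brings a ribosomal protein to the particle, had 22.3, 21.4 and 22.3 CPM in RIP, against 26.0, 29.1 and 25.5 CPM in input, 1.22-fold lower. *TSR1* had 56.6, 57.3 and 55.1 CPM in RIP, against 61.8, 61.2 and 59.4 CPM in input, only 1.08-fold lower (edgeR adjusted p = 0.0392). The call of *TSR1* was lost without RIP replicate 1 or 3 or input replicate 1 or 2 (adjusted p = 0.0887, 0.126, 0.0891 and 0.0910), and also with RLE scaling, DESeq2 or no filter (adjusted p = 0.106, 0.146 and 0.0755).

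The large subunit group had 20 tested members, of which 13 were lower, 4 higher and 3 not called, with a median of -0.97. After the length correction 14 were lower and 6 higher. For all tested genes these shares were 42% lower and 40.7% higher, and 40% and 40.2% after the correction. The PeBoW complex, which processes the precursor of the 60S subunit, was uneven. *BOP1* had 11.5, 12.0 and 12.97 CPM in RIP, against 60.1, 65.5 and 61.1 CPM in input, 5.13-fold lower (log2 fold change -2.36, SE 0.064, edgeR adjusted p = 5.52e-21). *PES1* had 28.5, 26.0 and 26.7 CPM in RIP, against 76.6, 78.3 and 75.7 CPM in input, 2.84-fold lower. *WDR12*, their partner, had 33.2, 32.3 and 33.8 CPM in RIP, against 35.3, 36.7 and 35.0 CPM in input. All RIP libraries of *WDR12* were under all inputs, but it was not called (edgeR adjusted p = 0.0741). *WDR12* is 8621 nt long, and after the length correction it was called lower (-0.56).

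The nucleolar GTPases lay on both sides. *GNL3L* had 273, 307 and 294 CPM in RIP, against 87.6, 88.1 and 84.1 CPM in input, 3.37-fold higher (log2 fold change 1.75, SE 0.054, edgeR adjusted p = 2.62e-21), the highest fold of the tested members before the length correction. Its paralog *GNL3*, nucleostemin, had 24.1, 25.2 and 22.8 CPM in RIP, against 108, 105 and 101 CPM in input, 4.35-fold lower (log2 fold change -2.12, SE 0.052, edgeR adjusted p = 1.06e-21). Per length, *GNL3L* stood at 27.4 ± 1.503 FPKM in RIP and 9.61 ± 0.247 in input, and *GNL3* at 10.8 ± 0.511 FPKM in RIP and 55.6 ± 1.77 in input, so their order was opposite in the 2 kinds of library. *GNL3L* is 9796 nt and *GNL3* 2046 nt long, and with the length trend removed the values were 1.26 and -1.48. *GNL2*, which assists export of the 60S subunit, had 27.9, 28.9 and 30.8 CPM in RIP, against 55.5, 56.5 and 55.7 CPM in input, 1.92-fold lower.

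A like contrast was seen for the RRP1 paralogs. *RRP1B* had 198, 190 and 199 CPM in RIP, against 65.8, 68.7 and 69.2 CPM in input, 2.88-fold higher (log2 fold change 1.53, SE 0.030, edgeR adjusted p = 1.17e-20). *RRP1* had 4.32, 3.75 and 3.27 CPM in RIP, against 17.1, 19.4 and 17.4 CPM in input, 4.74-fold lower (log2 fold change -2.25, SE 0.129, edgeR adjusted p = 3.69e-16). Both genes lie on chromosome 21, *RRP1B* at 43659560 to 43696079 and *RRP1* at 43789577 to 43805293 on GRCh38.p14. After the length correction they stood at 1.33 and -1.99. These pairs were picked by name with their values known, so the contrast is a description and was not tested.

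**Figure D4:**
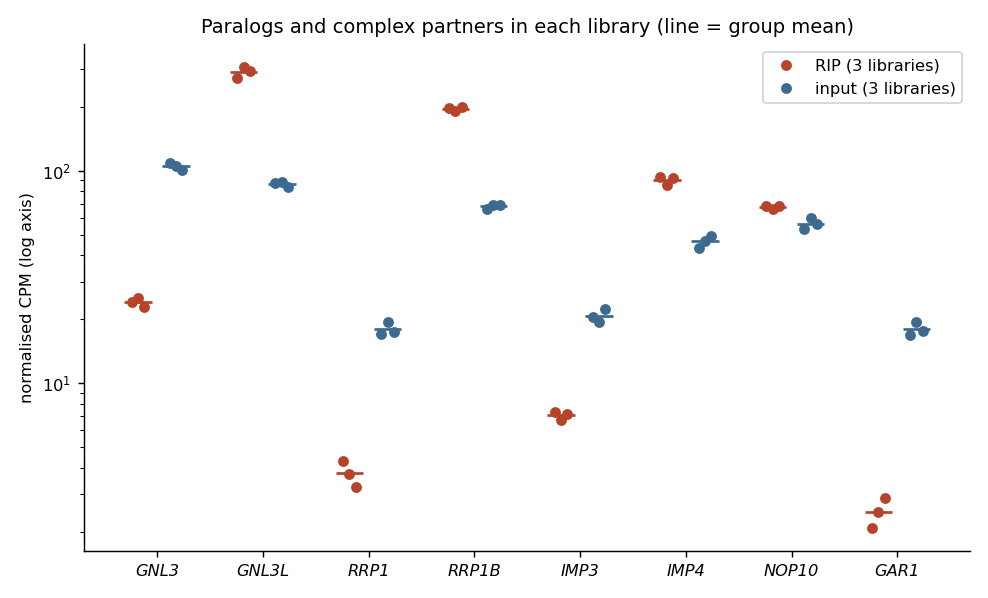
Normalised CPM (log axis) of the GNL3 and RRP1 paralogs and of partners in the MPP10 and box H/ACA complexes in each of 3 RIP and 3 input libraries, with a line at each group's mean. *GNL3L*, *RRP1B*, *IMP4* and *NOP10* are higher in RIP, while *GNL3*, *RRP1*, *IMP3* and *GAR1* are lower.

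Among the other 60S assembly factors 9 of 14 tested genes were lower, 3 higher and 2 not called, against 42% lower and 40.7% higher of all tested genes. *NOP16* had 2.52, 2.21 and 2.11 CPM in RIP, against 10.6, 12.7 and 10.3 CPM in input, 4.91-fold lower. *RRP15* had 19.7, 20.4 and 18.7 CPM in RIP, against 12.9, 11.5 and 11.2 CPM in input, 1.65-fold higher. *NOL9*, a polynucleotide kinase of rRNA processing, was the other gene of this set called higher beside *RRP1B*, at 1.58-fold. *NIP7* and *SDAD1* were not called and overlapped, at 22.97 ± 1.19 CPM in RIP and 23.1 ± 0.639 in input for *NIP7*, and 38.2 ± 1.01 CPM in RIP and 38.1 ± 1.47 in input for *SDAD1*. Those lower and not yet named ranged from -0.75 for *RRP8*, an rRNA methyltransferase, to -1.74 for *NOL12*. *NOL12* had only 75 reads over all libraries and an SE of 0.674.

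*NOP2*, an rRNA methyltransferase, had 5, 7 and 6 reads in RIP, against 6, 3 and 0 in input, and was not tested. The counting settings are not stated in the labels, so the few reads of *NOP2*, *EXOSC4* and *NOL12* are not read as low expression. Of the 78 members, 38 overlap the RefSeq span of another gene, and the counting of reads in such overlaps is not stated in the labels, so these counts are uncertain where exons overlap. No assembly role was assigned to 2 tested genes. *NOL3*, which encodes an inhibitor of apoptosis despite its symbol, was 1.23-fold lower (edgeR adjusted p = 0.0175), and the call was lost without input replicate 2 (adjusted p = 0.0971) and with DESeq2 (adjusted p = 0.0640). *NOL8* was 2.04-fold lower.

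Ribosome assembly factors outside the chosen symbols were mostly lower. That list was drawn up with earlier results of these data known, so it is a description and no separate check of the members. Of 65 tested, 51 were lower, 9 higher and 5 not called, with a median of -0.83, and after the length correction 49 were lower and 10 higher. Beside them, 42% of all tested genes were lower and 40.7% higher, and 40% and 40.2% after the length correction. *WDR74*, a factor of the pre-60S particle, was 12.3-fold lower, at 6.11 ± 1.31 CPM in RIP and 74.9 ± 3.66 in input. *BUD23*, a methyltransferase of 18S rRNA, was 8.54-fold lower, and its cofactor *TRMT112* 7.04-fold lower. The highest were *DIMT1*, a dimethylase of 18S rRNA, at 2.75-fold higher, and *NAF1*, an assembly factor of H/ACA snoRNPs, at 2.58-fold higher. *THUMPD1*, listed only as an adaptor of the acetyltransferase NAT10, was next at 2.47-fold higher. *DIMT1* had 22.8 ± 1.06 CPM in RIP and 8.31 ± 0.679 in input, *NAF1* 15.4 ± 0.682 in RIP and 5.95 ± 0.608 in input, and *THUMPD1* 90.3 ± 3.83 in RIP and 36.7 ± 0.499 in input.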

How the data were processed

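Raw read counts and FPKM per gene symbol were deposited by the authors. Per the submitters' processing notes, fastp 0.23.2, STAR 2.7.10a, featureCounts and DESeq2 were used with the build hg38, with annotation, strand and multi-mapping settings not given in the sources used here. Dividing the deposited counts by the deposited FPKM and the column totals gave whole gene lengths (to within 2.33e-10 nt), used as lengths here. All 12 value columns matched a sample title.

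Genes passing filterByExpr were scaled with TMM and tested with edgeR 4.0.16 (quasi-likelihood, robust, group as the only term, R 4.3.3), with Benjamini-Hochberg adjustment over all 12856 genes. The common biological coefficient of variation was 4.55%. Levels are normalised CPM and SEs come from log2 CPM between libraries. The length correction used loess offsets (span 0.3) on log2 length. The fits were tested on simulated data. No replicates agreed within sampling noise (chi-square per gene 3.42 to 8.34).

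Members and lists were chosen with earlier results of these data known. Library values were given for all members of the named complexes and, elsewhere, for the 2 highest and 2 lowest called genes of at least 5 CPM. For lists outside the members up to 3 called genes per direction were named. *SNU13*, *PNO1*, *RIOK3*, *NOB1*, *RIOK1*, *RIOK2* and *BYSL* were named besides, as partners of member groups. Alternatives included DESeq2 1.42.0, limma 3.58.1 (voom and log2 FPKM), other scalings and filters, a replicate block and leaving out each library.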

Additional observations from a re-analysis of the deposited data

How the results depend on the processing

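Of 1367 values of single members under the alternatives, 1277 kept their side of the threshold, 48 lost a call, 20 gained one and 22 turned. A change of sign was counted as a turn only where at least 1 of the 2 fits made a call. The length correction turned *EXOSC10* (0.17), *EXOSC2* (0.22), *EXOSC3* (0.54), *EXOSC5* (0.038), *NIP7* (0.30), *NOC4L* (0.70), *NOL3* (0.44), *NOL7* (0.21), *RRP36* (0.57), *TSR3* (0.18) and *UTP11* (0.40) to positive and *HEATR1* (-0.013) and *KRR1* (-0.31) to negative. Library size alone and limma on log2(FPKM + 1) and log2(FPKM + 0.1) turned *KRR1* (-0.053, -0.037 and -0.052), *NOLC1* (-0.134, -0.131 and -0.134) and *SDAD1* (-0.238, -0.219 and -0.235). Because FPKM divide by the total of each library, the FPKM fits are no separate check of that scaling. The counts of members were 12 to 14 higher and 55 to 60 lower with RLE, upper-quartile, DESeq2, voom and both filters. Over all genes these settings called 4509 to 5407 higher and 4689 to 5774 lower, of 10194 to 17495 tested. With each library left out, 13 to 14 members were higher and 55 to 57 lower. Those fits called 5103 to 5170 genes higher and 5271 to 5348 lower, of 12926 to 13122 tested. Member counts were 7 higher and 45 lower in a test against a 1.5-fold change. That test called 2973 higher and 3358 lower of all 12856 tested genes. In it the assembly factors outside the symbols had 5 higher and the exosome cofactors 1. With limma on log2(FPKM + 1) or log2(FPKM + 0.1) those were 5 and 1 too, where 4063 or 4074 of all 12856 genes were higher. Enriched genes made up 49.2% of the calls over all genes with TMM and 38.9% with library size alone. The replicate block gave 14 members higher and 56 lower, beside 5210 and 5390 of all 12856 tested genes. *TSR1* lost its call there (edgeR adjusted p = 0.0538). Same-numbered libraries did not deviate together (r of deviations 0.044, -0.041 and 0.036), and RIP library 2 correlated best with input 1. Such small correlations cannot tell whether a RIP library and its same-numbered input came from 1 lysate, which the labels do not state. *EXOSC4* and *NOP2*, with 21 and 27 reads in all, were not tested, and *NOL12* rests on 75 reads. The cause of these low counts was not tested.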
